A study of Mus musculus with 4 samples.

Results

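Nos2, Ass1, Odc1, Slc7a2 and Sat1 were followed as the arginine and polyamine metabolism genes of LLC tumors. These 5 genes were matched by symbol among the 18596 gene symbols listed in all 4 single-cell libraries, and all 5 were found. They were chosen for the pathway they share and not for their levels here, although earlier results of the same libraries were known when they were listed. The question was where each gene is expressed, with Nos2 in tumor cells set against myeloid cells, and how its level in the RT group compared with that of the NT group.

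Arginine enters cells through cationic amino acid transporters such as Slc7a2 and then has competing fates. It can be split into urea and ornithine, whereas the inducible nitric oxide synthase Nos2 turns it into nitric oxide and citrulline, from which Ass1, the argininosuccinate synthase, starts the remaking of arginine. Ornithine is the substrate of Odc1, the ornithine decarboxylase that commits it to the polyamines putrescine, spermidine and spermine, and Sat1, the spermidine/spermine acetyltransferase, marks polyamines for export or breakdown. In macrophages, Nos2 is classically a gene of activation by interferon gamma and bacterial products.

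LLC is a mouse lung carcinoma line, grown here as subcutaneous tumors in C57/BL6N mice of 6 to 8 weeks. The RT group received 24 Gy as 3 fractions of 8 Gy from day 7 to day 9, and the NT group was mock treated; all tumors were taken 72 h after radiation. The NT library pooled 3 tumors, whereas each of the 3 RT libraries, RT1 to RT3, came from 1 tumor. Since NT has no replicate, no test between the groups was run, and each RT library was set against the same NT library. The deposited tables held 69667759 unique molecular identifiers (UMIs, 1 per captured transcript copy) in NT, 78585759 in RT1, 108699844 in RT2 and 85660188 in RT3. Of 55805 barcodes, 55058 were kept, and their median UMIs were 5709 in NT, 3865 in RT1, 5200 in RT2 and 4158 in RT3.

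RT2 stood apart as a table before any result. It listed 18605 genes by symbol only, against 32285 in each other library, and its highest mitochondrial share of a barcode was 11.95%, against 92.6% in NT, 91.5% in RT1 and 97.0% in RT3. Between 182 and 277 barcode sequences were shared by each pair of libraries. Values are therefore printed for every library, and the main ratios are repeated without RT2.

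Cells were grouped into 18 clusters and named from markers, and neither these genes nor their pathway lists took part in building them. The names stand for likeness to the markers only. Tumor-like cells were the largest class, with 7236 cells in NT, 8023 in RT1, 7547 in RT2 and 9226 in RT3. Macrophage-like cells numbered 800, 3145, 3053 and 1879 in the same order, and monocyte-like cells 548, 1806, 1991 and 1819. Neutrophil-like cells were few in NT, with 20 cells against 184 in RT1, 254 in RT2 and 123 in RT3. Dendritic-like, lymphocyte-like, fibroblast-like and endothelial-like classes were smaller than the monocyte-like class, and 4384 cells stayed without a name. Below, the classes are called by their names without the ending.

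The tumor class carried Rhox5, a homeobox gene of these cells, at 1057 CPM (UMIs of a gene per 1e6 UMIs of its class in a library) in NT, 1308 in RT1, 1197 in RT2 and 1178 in RT3, and Krt8, a keratin, at 792, 557, 670 and 643 CPM. Krt7, Krt19 and Epcam, which mark many carcinomas, were at or near 0 CPM in the tumor class of every library. Of its 8 clusters, 3 (13429 of 32032 cells) had the fibroblast markers Lum or Dpt and no tumor marker among their 10 leading genes, so the main tumor results are also given cluster by cluster and without those 3. Rhox5 was also counted in the macrophage class, at 192, 309.6, 255 and 369 CPM in NT, RT1, RT2 and RT3. A macrophage cluster of 2455 cells (209 in NT, 871 in RT1, 854 in RT2 and 521 in RT3) had Rhox5 at 872 CPM and C1qb at 947 CPM. Relative to the highest cluster of each marker list, its largest marker sum was that of tumor, although macrophage genes such as Mrc1 were among its leading genes. Summed over the 8 tumor markers, of which Rhox5 was the most abundant and 1 to 4 were at 0, macrophages had 327, 454, 412 and 579 CPM, against 1875, 1881, 1903 and 1836 in tumor cells. Without sub-clusters that mixed tumor and myeloid markers, Rhox5 stood in macrophages at 39.8, 56.6, 48.5 and 75.0 CPM. The part of this tumor RNA in the macrophage ratios below was not tested beyond that exclusion.

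Nos2 was found in tumor cells at a low CPM and in macrophages and monocytes at a higher one. CPM is a share of the UMIs of a class and not a level per cell. In tumor cells it was 10.96 CPM in NT (682 UMIs, exact Poisson 95% interval 10.2 to 11.8), 14.7 in RT1 (865 UMIs, 13.7 to 15.7), 13.6 in RT2 (1078 UMIs, 12.8 to 14.4) and 15.5 in RT3 (1111 UMIs, 14.6 to 16.5). The NT interval did not meet that of any RT library. These intervals cover counting error only, and the 682 NT UMIs came from 208 cells. In macrophages Nos2 was 53.3 CPM in NT, 34.0 in RT1, 62.4 in RT2 and 38.2 in RT3, and NT lay inside the range of the RT libraries. In monocytes it was 80.6, 79.8, 68.4 and 61.1 CPM, with NT the highest and its interval of 63.4 to 101 containing the RT1 and RT2 values.

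Within a library, the log2 ratio of tumor cells over macrophages for Nos2 was -2.29 in NT, -1.21 in RT1, -2.20 in RT2 and -1.30 in RT3 (mean -1.75 ± 0.57, SD, n = 4). In CPM, macrophages were thus 2.31- to 4.87-fold higher, and monocytes 3.94- to 7.40-fold higher than tumor cells. NT and RT2 gave the wider gaps and RT1 and RT3 the narrower ones, so the gap did not separate the groups. Tumor cells were the larger class and had more UMIs per cell, with a median of 7374.5 in NT against 3161 in macrophages and 1306.5 in monocytes. They held 71.1% of all Nos2 UMIs in NT, 54.2% in RT1, 39.5% in RT2 and 69.6% in RT3. Macrophages, monocytes and dendritic cells held 26.4%, 41.9%, 54.7% and 27.2%. RT2 was the library with the lowest tumor share.

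Dendritic cells had no Nos2 UMI in any library. The floor of 3 counts corresponds to 15.2 CPM in NT, 12.1 in RT1, 4.49 in RT2 and 10.53 in RT3. The exact Poisson 95% intervals reached 18.75, 14.9, 5.52 and 12.9 CPM. Lymphocytes had 6.28, 1.27, 7.88 and 3.14 CPM. Endothelial cells had 67.6, 97.3, 46.5 and 16.3 CPM, from 12, 35, 33 and 2 UMIs, and fibroblasts 29.6, 11.1, 66.3 and 38.1 CPM, from 3, 3, 42 and 25 UMIs. Endothelial cells led the order in RT1, monocytes in NT and RT3, and neutrophils in RT2, with overlapping intervals between the first and the second class in NT, RT1 and RT3. The median of the macrophage markers in tumor cells was at most 0.340% of their macrophage level, whereas the tumor level of Nos2 was 20.6% of its macrophage level in NT, 43.3% in RT1, 21.7% in RT2 and 40.7% in RT3. At 1000 UMIs per cell, 0.928% of tumor cells had a Nos2 UMI in NT, 0.960% in RT1, 1.12% in RT2 and 1.18% in RT3, against 0%, 0%, 0.425% and 0% of lymphocytes. The exact binomial 95% interval of lymphocytes reached 1.40% in NT, 1.57% in RT1, 1.53% in RT2 and 1.54% in RT3, so the 2 classes were not told apart by this share. At 1000 UMIs per cell, macrophages had shares of 2.33%, 2.17%, 3.48% and 2.24%, and monocytes of 3.54%, 3.82%, 3.68% and 4.06%. Before thinning, 2.87%, 3.65%, 4.41% and 4.94% of tumor cells had a Nos2 UMI. In macrophages these shares were 3.625%, 3.91%, 8.35% and 4.58%, and in monocytes 3.28%, 4.37%, 5.73% and 4.51%. In RT3 the tumor share before thinning was thus above both.

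**Figure D1:**
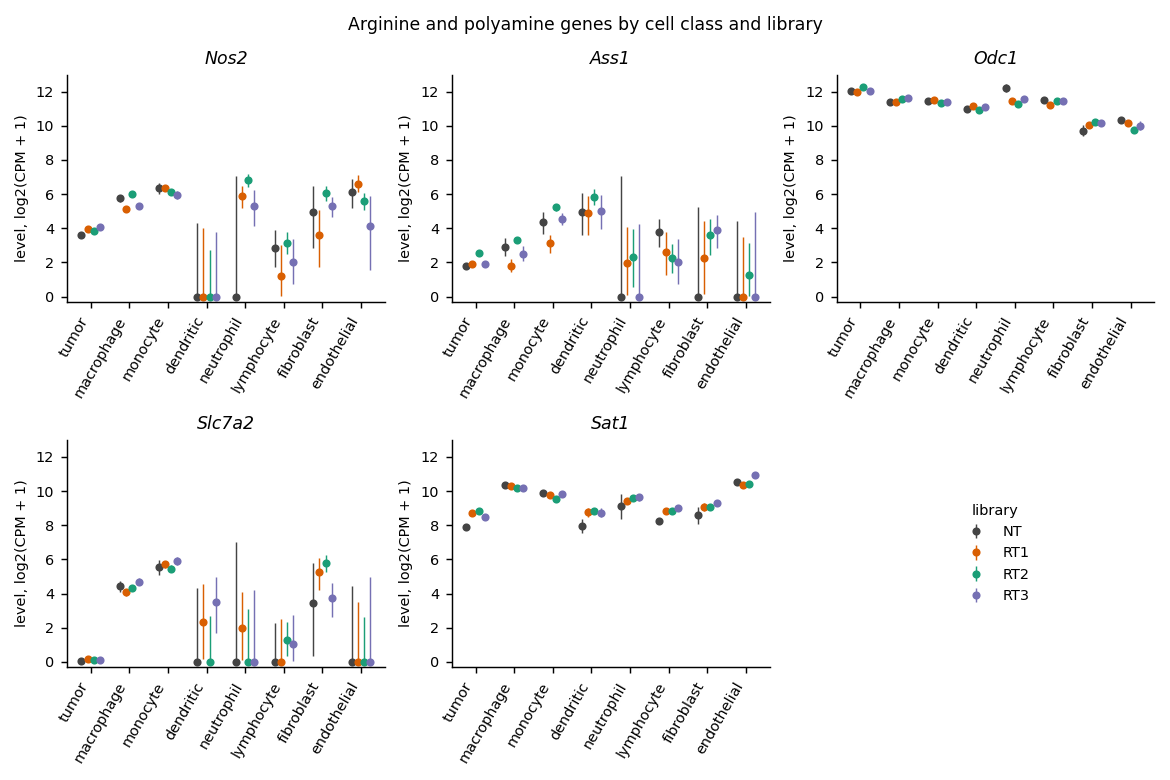
Level of each of the 5 genes (log2(CPM + 1), vertical axis) in each named cell class, with 1 point per library (NT, RT1, RT2 and RT3) and its exact Poisson 95% interval as a bar. Nos2 lies 2.31- to 4.87-fold lower in tumor cells than in macrophages, and Odc1 is present in every class.

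Ass1, which makes argininosuccinate from citrulline, was sparse. It was highest in dendritic cells, with 30.5 CPM in NT, 28.3 in RT1, 56.9 in RT2 and 31.6 in RT3, from 6 to 38 UMIs a library. Monocytes had 19.3, 7.63, 36.6 and 22.2 CPM, macrophages 6.59, 2.53, 8.95 and 4.74, and tumor cells 2.52, 2.80, 4.92 and 2.81. RT2 was the highest library in each of these 4 classes. The intervals of dendritic cells and monocytes overlapped in NT, RT2 and RT3, so their order is not set by these counts there.

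Slc7a2, a cationic amino acid transporter, was a gene of monocytes, macrophages and fibroblasts. Monocytes had 45.1 CPM in NT, 51.5 in RT1, 43.2 in RT2 and 58.9 in RT3, and macrophages 20.7, 15.9, 18.9 and 24.9 CPM. In both classes NT lay inside the range of the RT libraries, and monocytes were above macrophages in all 4 libraries. The mean log2 ratio of RT over NT was 0.16 in monocytes, 0.50 with at most 10% mitochondrial UMIs and -0.33 with at least 500 genes per barcode, and in macrophages it was -0.09, or 0.63 as a mean over cells. Fibroblasts had 9.85, 36.9, 53.7 and 12.2 CPM, from 1, 10, 34 and 8 UMIs. Tumor cells had 1, 8, 6 and 5 UMIs in all. Slc7a1, the cationic amino acid transporter of the same family that most growing cells use, was at 61.7, 54.7, 42.0 and 53.2 CPM in tumor cells.

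Odc1 was abundant in every class and highest in tumor cells of RT1, RT2 and RT3. Its tumor level was 4139 CPM in NT, 4071 in RT1, 4878 in RT2 and 4163 in RT3, with RT2 above the other libraries and NT between RT1 and RT3. In macrophages it was 2646, 2662, 3018 and 3188 CPM, and in monocytes 2817, 2895, 2584 and 2660.0 CPM. Neutrophils had 4795 CPM in NT (135 UMIs, interval 4020 to 5676), 2759 in RT1, 2479 in RT2 and 3055 in RT3, so that their NT value was above all 3 RT values. Fibroblasts and endothelial cells were the lowest classes, at 838 to 1179 CPM and 849.6 to 1297 CPM. Tumor cells held 93.0% of Odc1 UMIs in NT, 82.7% in RT1, 82.5% in RT2 and 88.2% in RT3. The Odc1 level in macrophages was 62% to 77% of that in tumor cells, against 17.4% to 31.7% for the median of the 2 tumor markers with at least 50 CPM in tumor cells, Rhox5 and Krt8. Without the mixed sub-clusters, macrophage Odc1 was lower, at 2260, 2288, 2501 and 2729 CPM in NT, RT1, RT2 and RT3. The part of tumor RNA in these Odc1 values was not tested.

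Sat1 was highest in endothelial cells and macrophages. Macrophages had 1292 CPM in NT, 1260 in RT1, 1175 in RT2 and 1171 in RT3, and endothelial cells 1488, 1314, 1350 and 1984 CPM. Tumor cells had 241 CPM in NT (interval 237 to 245), 417 in RT1 (412 to 422), 460 in RT2 (456 to 465) and 352 in RT3 (347 to 356). NT was the lowest library in tumor cells, with an interval that met none of the RT intervals, whereas in macrophages it was the highest. At 1000 UMIs per cell, 20.6% of tumor cells had a Sat1 UMI in NT, 30.2% in RT1, 33.2% in RT2 and 27.1% in RT3, and before thinning the shares were 69.8%, 73.4%, 80.7% and 71.7%. Monocytes had 945, 868, 743 and 923 CPM, dendritic cells 249, 433, 447 and 428, lymphocytes 302, 448, 458 and 524, and neutrophils 568, 691, 770 and 790. In dendritic cells and lymphocytes NT was the lowest library and its interval did not meet those of RT1, RT2 and RT3. The 9 macrophage markers were also lowest in NT in both classes. In NT, RT1, RT2 and RT3 they summed to 427, 955, 657 and 653 CPM in dendritic cells. In lymphocytes they summed to 91.0, 596, 478 and 219 CPM. Their part in these Sat1 values was not tested.

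**Figure D2:**
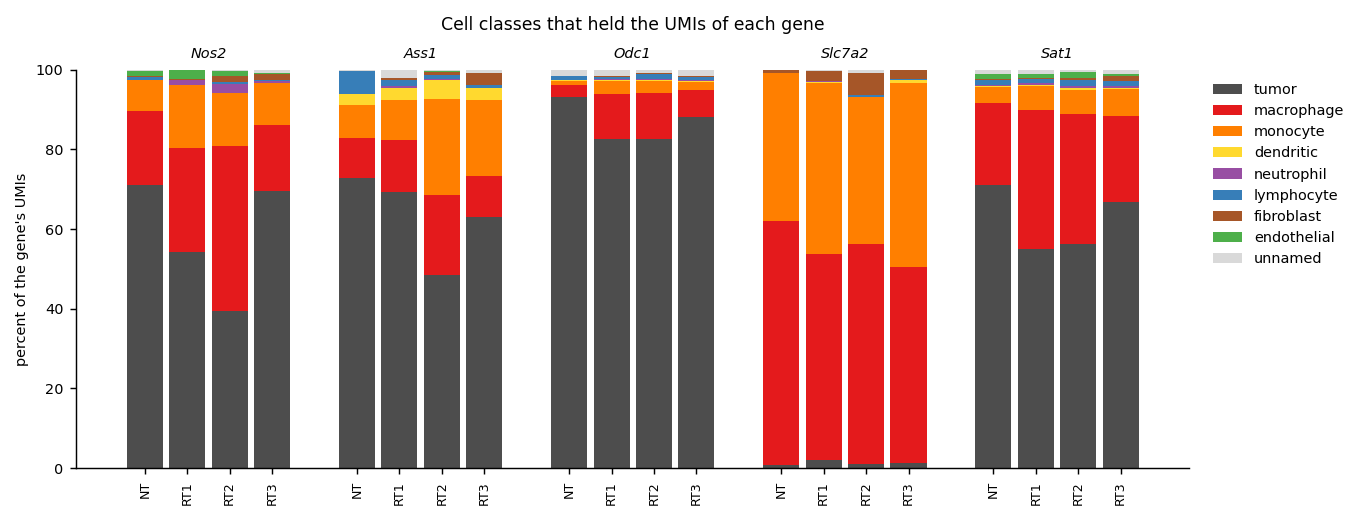
Share of the UMIs of each gene (percent, vertical axis, from 0 to 100) held by each cell class, with 1 stacked bar per gene and library. Tumor cells fill 82.5% to 93.0% of the Odc1 bars, and the Nos2 bars divide mainly between tumor and myeloid cells.

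Promoter windows from RefSeq (build GRCm38.p6) were read for 3 of the 5 genes, from 250 bases before to 50 bases after the start of the gene. These were the 3 members for which a window was matched. Odc1 and Sat1 start and end the polyamine branch described here, and Ass1 remakes arginine. They were searched for CACGTG, the E-box that Myc binds, which reads the same on both strands. Capitals mark the match. The Ass1 window is chr2:31470020-31470319 on the plus strand and held 1 match, at position 215 of the window. The Odc1 window is chr12:17544623-17544922 on the plus strand, the Sat1 window is chrX:155216400-155216699 on the minus strand, and neither held the letters. Of all 32851 windows of that length, 7.15% held them. Bases outside the windows were not searched, so a gene without a match here can have one elsewhere.
Ass1: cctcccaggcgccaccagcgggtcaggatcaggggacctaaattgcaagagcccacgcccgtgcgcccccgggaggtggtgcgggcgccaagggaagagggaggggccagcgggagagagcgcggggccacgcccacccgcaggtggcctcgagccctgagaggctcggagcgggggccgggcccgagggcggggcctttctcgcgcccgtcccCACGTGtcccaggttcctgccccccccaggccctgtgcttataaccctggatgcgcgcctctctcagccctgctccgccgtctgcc
Odc1: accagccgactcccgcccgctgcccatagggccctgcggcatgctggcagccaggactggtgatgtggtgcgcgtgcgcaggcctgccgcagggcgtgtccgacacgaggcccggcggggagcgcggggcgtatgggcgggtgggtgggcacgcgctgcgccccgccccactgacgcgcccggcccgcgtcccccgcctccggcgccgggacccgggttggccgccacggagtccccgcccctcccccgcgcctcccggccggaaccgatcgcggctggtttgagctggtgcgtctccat
Sat1: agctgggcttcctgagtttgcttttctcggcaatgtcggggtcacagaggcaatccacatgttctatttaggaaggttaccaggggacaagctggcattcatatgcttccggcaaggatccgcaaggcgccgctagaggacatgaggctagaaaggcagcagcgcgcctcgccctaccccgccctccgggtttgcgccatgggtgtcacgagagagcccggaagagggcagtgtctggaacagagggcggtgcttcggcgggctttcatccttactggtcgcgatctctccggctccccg

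In tumor cells, Sat1 and Nos2 were higher in every RT library than in NT, as were 26.2% of all genes tested, whereas 37.2% were lower in every one. Odc1 kept no direction. The log2 ratio of RT over NT for Sat1 was 0.79 in RT1, 0.93 in RT2 and 0.55 in RT3 (mean 0.76 ± 0.20, SD, n = 3), with an RT level of 409.5 ± 54.8 CPM against 241 in NT. For Nos2 it was 0.42, 0.31 and 0.50 (mean 0.41 ± 0.10), with an RT level of 14.6 ± 1.0 CPM against 10.96. For Odc1 it was -0.02, 0.24 and 0.01. Without RT2 the mean was 0.67 for Sat1, 0.46 for Nos2 and -0.01 for Odc1. None of the 3 genes that passed the filter on low counts (at least 50 UMIs over the 4 libraries and a mean of 10 CPM) differed from NT by a log2 ratio of 1 in every RT library, a rule that 1.19% of the 7822 genes tested met. At a log2 ratio of 0.5, Sat1 was past the rule, as were 5.13% of all genes in the higher direction and 1.33% in the lower one. Ass1 and Slc7a2 were under the filter in tumor cells. Macrophage, monocyte, neutrophil and fibroblast markers in the tumor class were also lowest in NT, whereas dendritic markers were highest there. The 9 macrophage markers, none at 0, summed there to 8.21 CPM in NT, 38.6 in RT1, 48.5 in RT2 and 22.3 in RT3, led by Cd68 or C1qb. The 8 monocyte markers summed to 553, 1146, 960.4 and 807 CPM, led by Fn1, and the 8 fibroblast markers to 1299, 2483, 2075 and 2189 CPM, led by Col3a1. The 8 neutrophil markers, led by Mmp9, summed to 13.3, 37.8, 40.1 and 27.9 CPM, and the 9 dendritic markers, led by Fscn1, to 412, 236, 313 and 287 CPM. Without the mixed sub-clusters, tumor Sat1 was 241, 417, 461 and 351.5 CPM and tumor Nos2 11.03, 14.7, 13.3 and 15.6 CPM. The part of these markers in the tumor ratios was not tested further.

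In macrophages, none of the 4 genes that passed the filter met a log2 ratio of 1 in every RT library, as 2.81% of 7513 genes did, nor 0.5, which 8.39% met in the higher and 4.15% in the lower direction. Odc1 was slightly higher in each RT library (0.01, 0.19 and 0.27) and Sat1 slightly lower (-0.04, -0.14 and -0.14), against 33.0% and 29.2% of all genes. Nos2 had ratios of -0.65, 0.22 and -0.48 and Slc7a2 of -0.39, -0.13 and 0.26, so neither kept a direction. The 9 macrophage markers, all counted in every library, summed to 7980.1 CPM in macrophages of NT, 12348 in RT1, 13531 in RT2 and 9884 in RT3, led by C1qc in NT and C1qb in the RT libraries. They were lowest in NT, and their part in the macrophage ratios was not tested.

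In monocytes, Nos2 (-0.02, -0.24 and -0.40) and Sat1 (-0.12, -0.35 and -0.03) were lower in every RT library, as were 25% of all genes, with 39.6% higher. The RT values of Nos2 had intervals that overlapped that of NT, and its mean ratio of -0.22 turned to 0.25 with at most 10% mitochondrial UMIs and to 0.17 as a mean over cells. None of the 5 genes met a log2 ratio of 1 in every RT library, as 4.32% of 6938 genes did, nor 0.5, which 12.4% met in the higher and 4.19% in the lower direction. The 8 monocyte markers summed in monocytes to 11093 CPM in NT, 14687 in RT1, 11294 in RT2 and 18364 in RT3, led by Thbs1. The 8 neutrophil markers summed there to 55.9, 197, 269 and 151 CPM, also lowest in NT, whereas the 9 dendritic markers were highest in NT. The part of these markers in the monocyte ratios was not tested. In neutrophils Nos2 had no UMI in the 20 NT cells, where 3 counts correspond to 107 CPM, and 58.0 CPM in RT1, 113 in RT2 and 38.3 in RT3, so no ratio is given. Of the 2 members of neutrophils with more than 3 NT UMIs, Odc1 (-0.80, -0.96 and -0.65) was lower and Sat1 (0.24, 0.40 and 0.44) was higher in every RT library, against 43.3% lower and 31.2% higher among all genes, and neither met the rule of 1 that 19.3% of 3234 genes met against these 20 cells. Sat1 rested on 16 NT UMIs, no RT interval lay outside that of NT, and its mean ratio of 0.36 turned to -0.03 with at least 500 genes per barcode. It was 0.62 without the highest doublet scores and 0.82 by median of ratios. Rhox5 was counted in neutrophils at 675, 682, 585 and 718 CPM, and its part in their Odc1 values was not tested. The 9 macrophage markers summed in neutrophils to 178 CPM in NT, with 7 at 0, and to 914 in RT1, 915 in RT2 and 388 in RT3. The part of these markers in the Sat1 values of neutrophils was not tested.

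**Figure D3:**
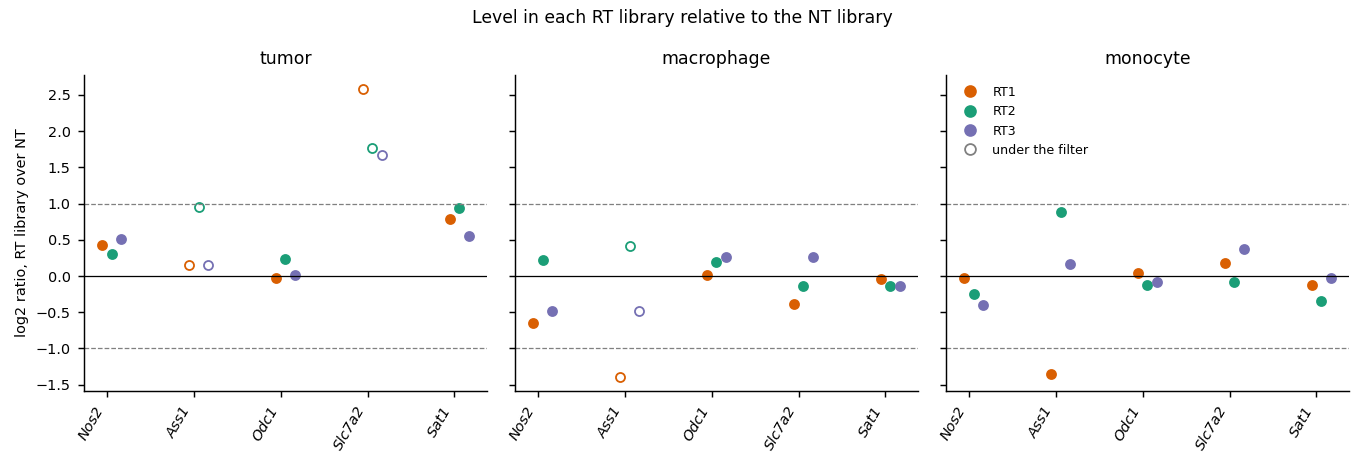
Log2 ratio of each RT library over NT (vertical axis) for the 5 genes in tumor cells, macrophages and monocytes, with 1 point per RT library, dashed lines at 1 and -1, and open points for genes under the filter on low counts. Among the filled points of tumor cells, Sat1 (0.55 to 0.93) and Nos2 (0.31 to 0.50) lie above 0 in all 3 RT libraries.

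The Nos2 level within the tumor class was highest in 2 of its 13 sub-clusters, 11 and 6. Sub-cluster 11, led by Bnip3, Nos2, Hmox1, Ero1l and Adm, had 188 CPM in NT, 219 in RT1, 77.6 in RT2 and 210.5 in RT3. Bnip3, Ero1l and Adm are genes known to be induced when oxygen is low, and Hmox1 is a heme oxygenase of the stress response. This sub-cluster was 1.45% of tumor cells in NT, 2.08% in RT1, 0.769% in RT2 and 1.26% in RT3, and it held 20.8%, 29.5%, 4.82% and 19.1% of tumor Nos2 UMIs. RT2 was the lowest in all 3 measures. Sub-cluster 6, led by the interferon-induced genes Ifit3, Ifit1, Rsad2, Iigp1 and Igtp, followed with 58.8, 76.4, 49.6 and 30.5 CPM and 23.3%, 19.4%, 33.6% and 9.0% of the UMIs. Larger sub-clusters with lower levels held much of the rest. Sub-cluster 1, led by Aqp1, Ptn, Nuf2, Klra4 and Asf1b, had 9.42, 12.7, 6.07 and 20.6 CPM and 19.5%, 19.1%, 6.77% and 36.0% of the UMIs, the largest share of any sub-cluster in RT3. Sub-cluster 4 held 10.4%, 8.55%, 25.6% and 5.58%. In the cycling sub-cluster 0, led by Cdk1, Stmn1, Pclaf, Tyms and Pbk, Nos2 was between 1.14 and 2.98 CPM.

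Nos2 was higher in every RT library in 4 of the 13 tumor sub-clusters (0, 3, 5 and 8, with 17, 4, 30 and 1 Nos2 UMIs in NT) and lower in every RT library in none. Sub-cluster 8 of these was led by the myeloid genes Il1b, Ccl4, Srgn, Ctss and Lyz2 and was nearest to the macrophage markers. Without sub-cluster 11, the tumor level was 8.79 CPM in NT, 10.6 in RT1, 13.01 in RT2 and 12.8 in RT3, with log2 ratios of 0.27, 0.57 and 0.54. Over the 8 clusters of the tumor class, Nos2 was higher in every RT library in 3 and lower in every RT library in 2. The direction seen over the whole class was thus not that of each cluster. Without the 3 clusters led by Lum or Dpt, tumor Nos2 was 10.9, 16.2, 13.1 and 16.7 CPM in NT, RT1, RT2 and RT3.

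Over 52 points (13 sub-clusters in 4 libraries), the genes with the pattern most like that of Nos2 among 6148 were Adm (Pearson r = 0.74), Slc2a1 (0.73), Tnfrsf9 (0.72), Hk2 (0.69), Vegfa (0.69), Ifi204 (0.67), Sod2 (0.65) and Btg1 (0.65). Slc2a1 is the glucose transporter GLUT1, Hk2 a hexokinase and Vegfa a blood vessel growth factor, whereas Ifi204 is an interferon-induced gene and Sod2 a mitochondrial superoxide dismutase. Of the other members, Sat1 had r = 0.44 and the remaining 3 had values between -0.01 and 0.02. The points of a library share its depth, so these values describe the pattern only. In sub-cluster 11, Adm was at 1716 CPM in NT, 1487 in RT1, 624 in RT2 and 1303 in RT3, and Slc2a1 at 926, 689, 273 and 485, with RT2 the lowest for both as for Nos2.

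**Figure D4:**
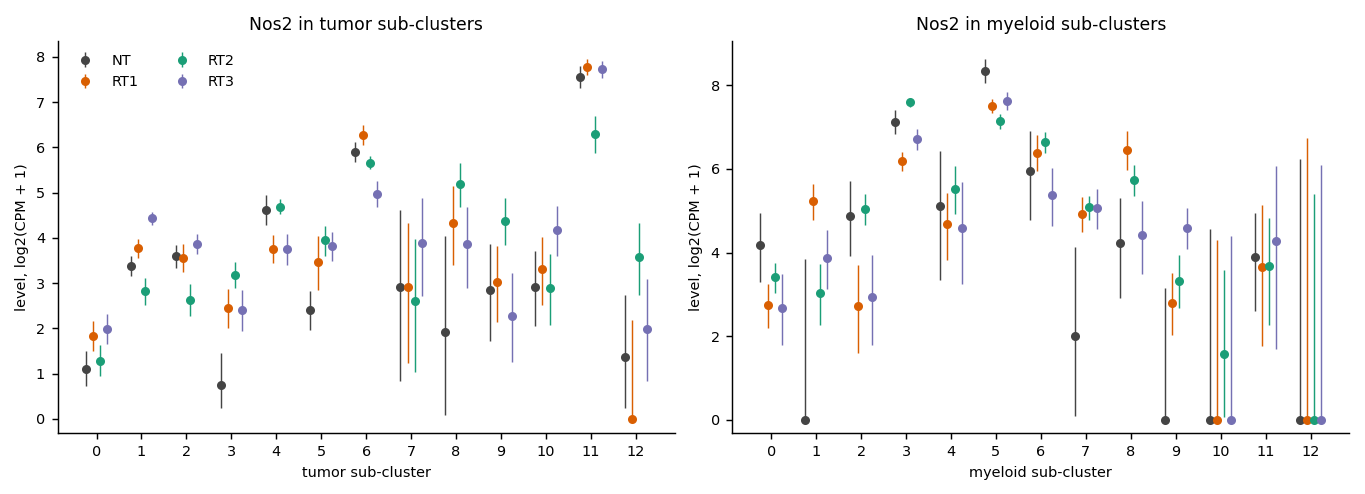
Level (log2(CPM + 1), vertical axes) of Nos2 in the 13 tumor sub-clusters (left) and in the 13 myeloid sub-clusters (right), with 1 point per library and its exact Poisson 95% interval as a bar. Tumor sub-clusters 11 and 6 stand highest for Nos2, and myeloid sub-cluster 5 stands highest in NT, RT1 and RT3 and sub-cluster 3 in RT2.

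Nos2 within the myeloid classes was highest in sub-cluster 5 in NT, RT1 and RT3 and in sub-cluster 3 in RT2. Sub-cluster 5, led by Mmp12, Cd36, Lyz1, Cxcl5 and Retnla, made up 6.43% of the myeloid cells in NT, 9.11% in RT1, 7.15% in RT2 and 9.06% in RT3. Mmp12 is a macrophage elastase and Cd36 a scavenger receptor for lipids. Nos2 there was 325 CPM in NT, 181 in RT1, 140 in RT2 and 196 in RT3, with NT above all 3 RT libraries. Sub-cluster 3, led by Vcam1, Cxcl9, AW112010, Calhm6 and Ifnb1, had Nos2 at 139, 71.4, 191 and 104 CPM, with NT inside the RT range. Cxcl9 is a chemokine induced by interferon gamma. Nos2 was higher in every RT library in 4 of the 13 myeloid sub-clusters (1, 7, 8 and 9, with 0, 1, 6 and 0 Nos2 UMIs in NT) and lower in every RT library in 2 (0 and 5). Of those 4, sub-cluster 7 was nearest to the fibroblast markers and 9 to the tumor markers. Slc7a2 was at 58.5 to 125 CPM in sub-cluster 5 over the 4 libraries, against 15.9 to 24.9 CPM in macrophages as a whole. Sub-cluster 3 was above it in NT, at 63.6 CPM, and sub-cluster 6 in RT2, at 69.6 CPM.

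Sat1 was higher in RT throughout most of the tumor class. It was higher in every RT library in 11 of the 13 tumor sub-clusters, all but 11 and 12, and in 8 of the 8 tumor clusters. The 11 include sub-clusters 7 and 8, which mixed tumor and myeloid markers. Sub-cluster 4, led by Lum, Ramp2, Ccl11, Islr and Fbn1, had the highest Sat1, at 772 to 1273 CPM, with log2 ratios of 0.68, 0.72 and 0.51. It was 6.26% of tumor cells in NT, 11.8% in RT1, 16.2% in RT2 and 8.96% in RT3, and held 15.5%, 29.7%, 38.8% and 21.6% of tumor Sat1 UMIs, so the RT libraries had more of their tumor cells in it. In the interferon-led sub-cluster 6 the ratios were 1.03, 1.10 and 0.85. In sub-cluster 11 they were 0.23, -0.88 and 0.27, with RT2 on the other side of NT. Without the 3 clusters led by Lum or Dpt, Sat1 in tumor cells was 194 CPM in NT, 275 in RT1, 298 in RT2 and 264 in RT3, a mean log2 ratio of 0.52.

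Sub-cluster 4 was also the highest for Odc1, at 8131 to 9325 CPM, and sub-clusters 11 (1701 to 2557 CPM) and 12 (2019 to 2176 CPM) were the lowest. Odc1 was higher in every RT library in 4 tumor sub-clusters and lower in every RT library in 3, with no common direction. In the 13 myeloid sub-clusters Sat1 was higher in every RT library in 3 and lower in every RT library in 4.

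**Figure D5:**
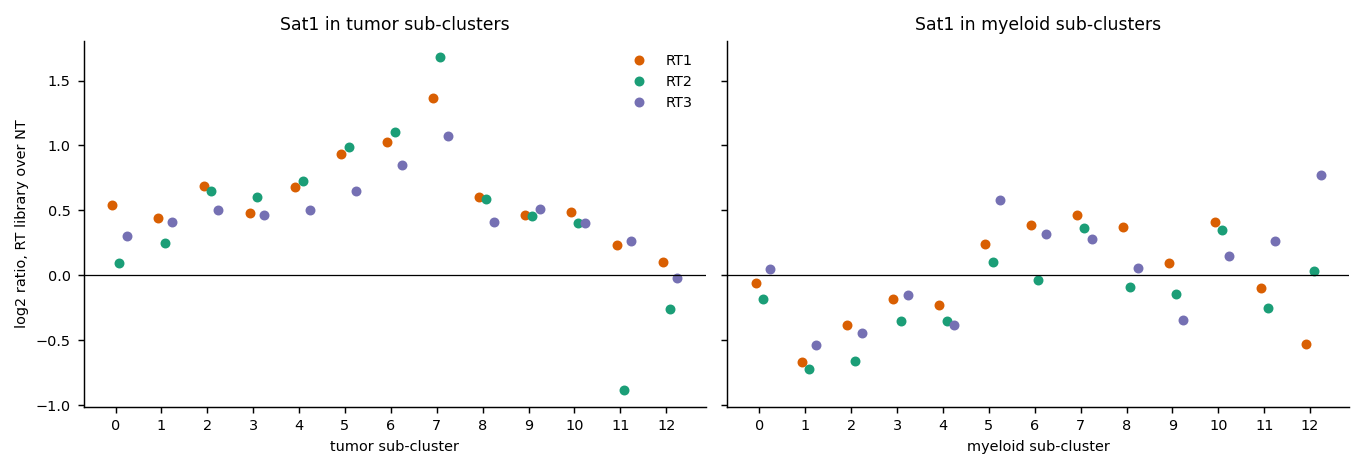
Log2 ratio of Sat1 in each RT library over NT (vertical axes) in the 13 tumor sub-clusters (left) and the 13 myeloid sub-clusters (right), with 1 point per RT library. All 3 points lie above 0 in 11 tumor sub-clusters, and in 3 myeloid sub-clusters, where 4 have all points below 0.

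The rest of the polyamine pathway in tumor cells was described by lists and counts. Of 6 polyamine synthesis genes, all measured, none was higher and 4 were lower in every RT library, against 26.2% higher and 37.2% lower among all 7822 genes. Srm, the spermidine synthase, had log2 ratios of -0.85, -0.22 and -0.61, and Sms, the spermine synthase, of -0.05, -0.29 and -0.18. Of 4 measured genes of polyamine acetylation, oxidation and transport, 3 were higher in every RT library and none lower. They were Sat1, Smox (0.51, 0.58 and 0.58), the spermine oxidase, and Slc3a2 (0.17, 0.17 and 0.24), a transporter subunit that is also on the arginine uptake list. The median of the mean log2 ratios was -0.18 for synthesis and 0.38 for acetylation, against -0.06 over all genes. Slc7a1, Srm, Sms and Smox were named after their values were seen.

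Spermidine is also used to make hypusine, a modified residue of the translation factor Eif5a. Of 3 measured genes of this list, 2 were lower in every RT library in tumor cells and 2 in macrophages, against 37.2% and 29.2% of all genes. Eif5a was at 495, 311, 385 and 342 CPM in tumor cells of NT, RT1, RT2 and RT3 and at 297, 160.3, 209 and 203 CPM in macrophages. Oaz1, the antizyme that sends Odc1 to degradation, led its list at 1023, 1018, 1073 and 1037 CPM in tumor cells, nearly level over the libraries. Of the 3 measured genes of that list, 2 were lower in tumor cells in every RT library and none in macrophages, beside the same shares of all genes.

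Creatine is made from arginine by Gatm and Gamt and taken up by Slc6a8. Gatm in macrophages was at 220.2 CPM in NT, 63.5 in RT1, 40.9 in RT2 and 39.8 in RT3, past a log2 ratio of 1 in every RT library in the lower direction (-1.79, -2.43 and -2.47). Slc6a8 in macrophages was at 8.99, 28.7, 20.9 and 21.3 CPM, past it in the higher direction (1.65, 1.19 and 1.22), from 30 UMIs in NT. In tumor cells Gatm was at 18.7, 10.1, 8.69 and 7.89 CPM and Slc6a8 at 14.8, 37.4, 29.3 and 27.9 CPM, the same directions at a log2 ratio of 0.5. NT was outside the range of the RT libraries for both genes in both classes.

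The other arginine lists were small, and the shares of all genes were 26.2% higher and 37.2% lower in every RT library in tumor cells and 33.0% and 29.2% in macrophages. Of 3 measured arginine uptake genes in tumor cells, 1 was higher and 1 (Slc7a1) lower in every RT library, and in macrophages 1 of 4 was higher and 1 lower. Slc3a2 led this list, at 263, 296, 296 and 312 CPM in tumor cells. Of arginine and citrulline synthesis, only Slc25a15, the mitochondrial ornithine carrier, passed the filter on low counts in tumor cells and in macrophages, at 17.8, 16.4, 13.8 and 13.8 CPM in tumor cells. Of 6 nitric oxide genes in tumor cells, 1 (Nos2) was higher and 3 lower in every RT library, near the 26.2% and 37.2% of all genes, and Spr, which makes the cofactor tetrahydrobiopterin, led them at 77.6, 48.0, 68.4 and 58.6 CPM.

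Among 9 measured transcription factors of macrophage activation in macrophages, 2 were higher and 1 lower in every RT library, against 33.0% and 29.2% of all genes. Klf4 led them at 1087, 1456, 1520 and 1427 CPM, with log2 ratios of 0.42, 0.48 and 0.39. In tumor cells 1 of 8 was higher and 2 lower, against 26.2% and 37.2% of all genes, and Irf1 led at 812, 471, 621 and 635 CPM. Irf1 is also on the interferon gamma list, of which none of 7 genes was higher and 4 were lower in macrophages, led by the chemokine Cxcl10 at 3265, 1265.0, 1279 and 2129 CPM. Of 8 alternative activation genes in macrophages 7 were higher in every RT library and none lower, against 33.0% and 29.2% of all genes. Ccl8, a chemokine, was at 1345, 4922, 3619 and 3626 CPM and Chil3, a chitinase-like protein, at 7.19, 42.6, 50.9 and 200 CPM in macrophages, and Chil3 in monocytes was at 189, 753, 807 and 2570 CPM. Of the 9 measured oxygen response genes in tumor cells, 2 were higher and 5 lower in every RT library, against 26.2% and 37.2% of all genes, and Pgk1 led them at 2215, 1766, 1112 and 1655 CPM. In neutrophils, where 19.3% of all genes were past a log2 ratio of 1 against the 20 NT cells, Cxcl10 was at 355 CPM in NT (10 UMIs), 829.8 in RT1, 1548 in RT2 and 1264 in RT3. Pts, Stat6, Gbp3 and Ccl8 had no NT UMI there and Eif5a had 3, so no ratio is given for them.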

How the data were processed

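Libraries were made by the authors with the SeekOne MM 3′ kit, and SeekOne Tools turned the reads into UMI counts. The deposited counts are whole numbers per gene and barcode, not normalized, in a separate table for each library. The submitters' processing notes also name STAR 2.5.1b, Subread 1.6.4 with featureCounts, Cell Ranger and the build GRCm39 (mm39), with no role given. The deposited lists of genes and barcodes hold names, not measurements. The deposited counts were joined on gene symbols. Reads of near-identical copies, which Odc1 has, depend on how the authors' counting assigned them.

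Barcodes were kept from 200 detected genes upward if no more than 20% of their UMIs were mitochondrial. Clusters came from 2000 variable genes without the members and pathway lists, 30 principal components, a Harmony-type integration (written in numpy 2.4.6) and Leiden clustering (leidenalg 0.10.2) at a resolution of 0.8, and tumor and myeloid cells were clustered again in the same way. The planned naming by the nearest marker list was changed after the clusters were seen, because LLC cells express fibroblast genes: clusters within a coarse cluster with the highest summed tumor markers were named tumor. The exception was the shallow cluster of 4384 cells, left without a name although its Rhox5 was at 1039 CPM. Its median UMIs were 1009.5 in NT, 838 in RT1, 783.5 in RT2 and 864.5 in RT3. Doublets were not removed, except in an alternative.

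UMIs were summed per library and class and given as CPM with exact Poisson 95% intervals, which cover counting error only, as do the floors of 3 counts. Counts from the 3′ end were not scaled by length, so levels are not compared between genes. Log2 ratios add 0.5 UMI. Because the filter uses the mean of 4 libraries, a low gene that is lower in RT can drop out. Thinned shares use 1000 UMIs per cell. RT libraries are separate tumors, and the spread between them is given as SD. The filter, the log2 ratio and the rule of 1 were tested on simulated class sums of tumor cells, macrophages and monocytes. The simulated libraries had no spread beyond counting error and the changes put in. Clustering, naming and thinning were not tested in this way.

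Of 7 genes matched by the rule, 2 are not reported here. The members, gene lists and alternatives were chosen with earlier results of these data known. Genes named in the text are the members, the list genes past the log2 ratio of 1, the most abundant gene of each list, the 8 genes most like Nos2, and the 5 leading genes of a named sub-cluster, with exceptions stated beside them. Alternatives were other cell filters, resolutions, scalings, class definitions and size rules, and leaving out each RT library. Promoter windows came from RefSeq (GRCm38.p6), 3 of 5 members matched, and gene coordinates were otherwise not used because the builds differ.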

Additional observations from a re-analysis of the deposited data

Results flagged for a closer look

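Tumor cells, macrophages, monocytes and neutrophils were compared with each other. Between these classes, the ratios of RT over NT pointed in opposite directions, in every RT library, for 3 of the 5 genes. The share of all genes with such opposite directions was not counted, and only the shares within each class are given above. Whether 3 of 5 is more than among all genes was therefore not tested. Smaller classes are left out here, such as Odc1 in fibroblasts (0.31, 0.49 and 0.45) and endothelial cells (-0.21, -0.61 and -0.33). Since NT is 1 library, none of these differences was tested. Sat1 was higher in RT in tumor cells and lower in macrophages, a difference of 0.86 between the mean log2 ratios, and lower in monocytes, a difference of 0.93. The lower Sat1 intervals lay outside that of NT in 2 of 3 RT libraries in macrophages and in 1 of 3 in monocytes. Nos2 was higher in RT in tumor cells and lower in monocytes, a difference of 0.63, but the monocyte ratio turned to 0.25 with at most 10% mitochondrial UMIs and to 0.17 as a mean over cells, and no RT interval lay outside that of NT. The other differences between these classes involve neutrophils, of which NT had 20 cells. Sat1 was higher in RT in neutrophils and lower in macrophages and monocytes, with differences of macrophages minus neutrophils of -0.46 and of monocytes minus neutrophils of -0.53. The neutrophil ratio of Sat1 rested on 16 NT UMIs, with no RT interval outside that of NT, and it turned to -0.03 with at least 500 genes per barcode. It was 0.62 without the highest doublet scores and 0.82 by median of ratios. Odc1 was higher in RT in macrophages and lower in neutrophils, a difference of 0.96. Its neutrophil ratio moved from -0.80 to -0.31 without the highest doublet scores, -0.34 by median of ratios and -0.41 as a mean over cells.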

How the results depend on the processing

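No paired analysis was possible because NT is 1 library and the results come from no test. The number of members past a log2 ratio of 1 was 0 in tumor cells and 0 in macrophages. It became 1 in tumor cells (Sat1) at a log2 ratio of 0.5, and 1 in tumor cells with at least 10 UMIs and no minimum CPM (Slc7a2, 1 UMI in NT). Without any single RT library both counts ranged from 0 to 0. The mean log2 ratio of tumor Nos2 (0.41) was 0.52 with at most 10% mitochondrial UMIs and 0.27 as a mean over cells of UMIs per 10000, and it ranged from 0.36 to 0.46 when each RT library was left out. Nos2 in tumor cells over macrophages ranged from -1.93 to -1.60 without an RT library. All alternatives gave 0.27 to 0.52 for tumor Nos2 and -2.07 to -1.60 for Nos2 in tumor cells over macrophages, with no change of sign. For the other 13 ratios, 148 of 171 alternative values lay within 1 SD of the reported one, 23 did not, and 19 had the other sign. The exclusions of mixed sub-clusters (Nos2 0.40) and of the clusters with Lum or Dpt among their 10 leading genes (Nos2 0.49, Sat1 0.52) were chosen after seeing the data. The causes of these shifts were not tested. Counting noise limits Ass1, Slc7a2 and every NT neutrophil value, the single NT library limits every ratio, and its 3 pooled tumors cannot be told apart.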
